A study of Rattus norvegicus with 47 samples.

Results

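The genes Avpr1a, Kcnj15, Cdh17, Inmt, Aass, Dhrs7l1 and Tpd52l1 are 7 of the 14217 genes measured on rat expression arrays in liver lesions and in the liver around them. They were chosen by their log2 differences between lesions and surrounding liver on these same arrays, as genes among the largest falls in several lesion types. The differences between lesions and surrounding liver below therefore describe the choice and carry no test. The 7 genes had 8 probe sets in all, 2 of them for Kcnj15.

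The arrays were hybridised with RNA of male Wistar rats that had all received a single dose of the nitrosamine N-nitrosomorpholine (NNM, 250 mg/kg) at 4 weeks of age, and that, following 3 weeks of recovery, were given phenobarbital in drinking water (a daily 50 mg/kg, 17 months at most). The surrounding liver shares this exposure, so no group in any comparison comes from undosed rats. Formalin-fixed, paraffin-embedded (FFPE) tissue was laser-microdissected and gave 9 arrays of foci, 5 of adenomas and 4 of surrounding liver from 4 rats. Frozen tissue gave 5 arrays of nodules, 6 of adenomas, 4 of carcinomas, 4 of beta-catenin carcinomas and 7 of surrounding liver from 5 rats. Beta-catenin carcinomas are those whose group label names beta-catenin, and the source name of replicate 1 gives no mutation. Rats 10 and 14 gave both FFPE and frozen tissue. The frozen adenomas came from 2 rats only, and only rat 14 gave both frozen adenomas and a nodule. Values are log2 levels as deposited, fixations were fitted apart, and ± after a fitted difference is its standard error with the rat as a block. Array medians lay between 5.49 and 5.59 in frozen and between 5.58 and 5.68 in FFPE tissue. Labels do not say that lesions of a rat are independent growths, so p-values measure the spread between these samples. Levels of different genes are not comparable with each other on these arrays.

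Hepatocytes carry receptors for circulating hormones, channels that set their membrane potential, adhesion proteins and a large set of enzymes for amino acids and foreign compounds. Avpr1a is the vasopressin receptor of the hepatocyte and couples to inositol phosphate and calcium release. Kcnj15 is an inwardly rectifying potassium channel, and Cdh17 is liver-intestine cadherin, an atypical cadherin of the cell surface. Inmt transfers methyl groups from S-adenosylmethionine to indoles and other amines, Aass catalyses the first steps of mitochondrial lysine breakdown, and Dhrs7l1 belongs to the short-chain dehydrogenases. Tpd52l1 belongs to the D52 family of coiled-coil proteins, which are known from vesicle trafficking.

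RefSeq promoter windows (GRCr8) were found for 6 of the 7 genes. The last 120 bases before the start are shown for Inmt and Dhrs7l1, whose levels varied together most closely among frozen arrays of the same group, and for Aass and Kcnj15, the genes for which a difference between lesion types passed a test. Sequences run 5′ to 3′ on the gene's strand, and capitals mark a motif found by exact match. For Kcnj15 the start in this table lies 24.0 kb inside the span that RefSeq gives the gene, so its window is not upstream of the whole gene.
Inmt (chr4:85652756-85652875, minus strand): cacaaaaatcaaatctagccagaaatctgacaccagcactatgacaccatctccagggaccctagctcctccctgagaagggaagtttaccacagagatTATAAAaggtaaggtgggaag
Dhrs7l1 (chr6:97047900-97048019, minus strand): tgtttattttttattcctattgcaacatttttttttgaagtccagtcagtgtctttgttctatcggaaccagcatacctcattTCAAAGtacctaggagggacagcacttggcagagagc
Aass (chr4:52628812-52628931, minus strand): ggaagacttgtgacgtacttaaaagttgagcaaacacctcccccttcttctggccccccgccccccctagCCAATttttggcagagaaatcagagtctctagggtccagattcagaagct
Kcnj15 (chr11:48070830-48070949, plus strand): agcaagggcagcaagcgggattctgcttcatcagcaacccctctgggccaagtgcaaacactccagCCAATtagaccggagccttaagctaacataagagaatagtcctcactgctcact
Motifs were searched on both strands in 250 bases before the start and did not overlap each other. The capitals in Inmt are the TATA box letters TATAAA, held by 12.9% of 33469 windows of that length. The CCAAT letters in Aass and Kcnj15 are held by 34.0% of windows. The capitals in Dhrs7l1 are the TCF/LEF letters CTTTGA on the opposite strand, held by 13.9%. The FOXA letters TGTTTAC (3.21% of windows) and the HNF4 letters CAAAGTCCA (0.338%) are in none of the 6 windows. These matches describe letters only.

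The 7 genes averaged below surrounding liver in each of the 6 lesion types. Their median fitted difference was -2.11 in FFPE foci, -1.54 in FFPE adenomas, -1.32 in frozen nodules, -3.66 in frozen adenomas, -3.0 in carcinomas and -3.15 in beta-catenin carcinomas, while the median over all genes was within 0.02 of 0 in every type. Called here means a Benjamini-Hochberg adjusted p under 0.05 over all 14217 genes by limma. By that threshold 5 of the 7 were lower in foci, where 1.36% of all genes were called lower, and 3 in FFPE adenomas (0.872% of all genes). None was called in nodules (0.0352% of all genes). There 3 of the 7 had an unadjusted p under 0.05, as had 1811 of all 14217 genes in either direction. In adenomas 6 were called lower (9.57% of all genes), in carcinomas 5 (6.91%) and in beta-catenin carcinomas 6 (9.58%). These counts follow from how the genes were chosen. In whole tissue pieces, fewer cells that express a gene and less RNA per cell cannot be told apart.

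**Figure D1:**
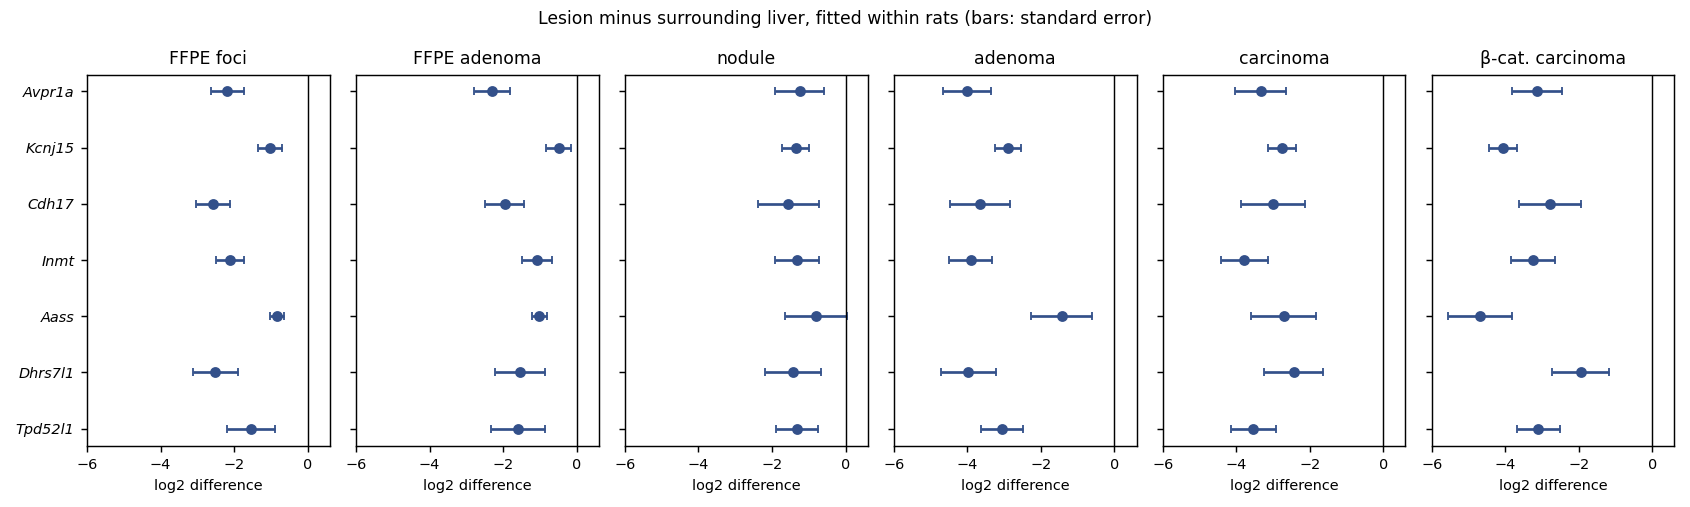
Fitted log2 difference of each gene between a lesion type and the surrounding liver of the same fixation, with the standard error as a bar. All points lie below 0, from -4.69 for Aass in beta-catenin carcinomas to -0.49 for Kcnj15 in FFPE adenomas.

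Avpr1a, the vasopressin receptor, was lower than every surrounding array of its own rat in all 33 lesions. Its log2 level in the 9 foci ranged from 4.90 to 6.88 with a median of 6.40. The 5 FFPE adenomas, of which the source name of adenoma 4 reads as surrounding tissue, had 8.45, 6.44, 8.14, 7.17 and 4.27, against 9.50, 9.01, 7.00 and 9.17 in FFPE surrounding liver. The foci lay below all 4 surrounding arrays, while 3 of the adenomas were above the lowest, that of rat 18, from which no adenoma was taken. The frozen nodules had 8.07, 6.87, 8.19, 8.24 and 7.56, and the 6 adenomas ranged from 3.42 to 7.71 with a median of 4.55. Carcinomas had 6.35, 5.51, 4.18 and 4.63 and beta-catenin carcinomas 3.97, 4.62, 5.71 and 7.61, against 8.47 to 9.35 (median 8.84) in the 7 surrounding arrays. No frozen lesion reached the lowest surrounding array. The fitted difference of Avpr1a was -4.02 ± 0.65 in adenomas (16.2-fold lower), -3.34 ± 0.70 in carcinomas, -3.15 ± 0.68 in beta-catenin carcinomas and -1.25 ± 0.66 in nodules. In FFPE tissue it was -2.19 ± 0.45 in foci, and -1.53 ± 0.47 there without rat 10, and -2.30 ± 0.50 in adenomas, and -1.45 there without FFPE adenoma 5.

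Kcnj15, the potassium channel, was at its lowest in beta-catenin carcinomas. These had log2 levels of 4.28, 4.81, 4.96 and 4.25, carcinomas had 6.12, 6.12, 5.18 and 5.72, and surrounding liver ranged from 8.07 to 9.17 with a median of 8.39. The 6 adenomas ranged from 5.08 to 7.25 with a median of 6.05, and the nodules had 6.50, 6.57, 7.38, 6.09 and 8.47. Among the frozen lesions only nodule 5, of rat 14, lay within the range of surrounding liver, and it was below the 8.94 of its own rat. The 4 beta-catenin carcinomas lay below all 4 other carcinomas. In that comparison Kcnj15 was not called (limma adjusted p = 0.598), and 0% of all genes were. How many genes separate these groups as fully was not counted. Fitted differences were -4.06 ± 0.37 in beta-catenin carcinomas (16.7-fold lower), -2.75 ± 0.38 in carcinomas, -2.89 ± 0.36 in adenomas and -1.36 ± 0.36 in nodules. In FFPE tissue the foci ranged from 3.91 to 5.78 (median 4.94) and the adenomas had 5.70, 4.84, 5.96, 6.25 and 5.26, against 5.68, 6.40, 6.90 and 5.56 in surrounding liver. Both groups overlapped with surrounding liver, and the fitted differences were -1.02 ± 0.32 in foci and -0.49 ± 0.35 in adenomas. All of this refers to the brighter of its probe sets. The other probe set stayed between 4.16 and 4.85 on all frozen arrays in the fits and had fitted differences between -0.15 and 0.03 there. It was already at 4.30 to 4.85 in surrounding liver, below the frozen array medians of 5.49 to 5.59, so it tells little about a fall. The means of the probe sets, given next, include this dim one. With the mean of the probe sets the fitted difference was -2.04 ± 0.21 in beta-catenin carcinomas, -1.36 ± 0.22 in carcinomas, -1.52 ± 0.20 in adenomas, -0.73 ± 0.20 in nodules, -0.66 ± 0.28 in foci and -0.11 ± 0.31 in FFPE adenomas.

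Cdh17, the cadherin, was lower than every surrounding array of its own rat in 31 of 33 lesions, on a background that differed widely between rats. FFPE foci ranged from 4.64 to 6.66 with a median of 5.65, and FFPE adenomas had 6.14, 8.0, 8.96, 8.65 and 4.14, against 7.61, 10.42, 8.85 and 8.46 in surrounding liver. The foci lay below all 4 surrounding arrays, and 3 of the 5 adenomas lay within their range. Frozen nodules had 8.30, 6.53, 5.01, 5.22 and 10.73, the adenomas ranged from 6.18 to 10.61 (median 7.31), carcinomas had 6.46, 7.71, 6.43 and 6.94, and beta-catenin carcinomas 7.30, 5.71, 5.49 and 11.07. Frozen surrounding liver had 5.22 in rat 11 and 9.57 to 11.58 on its other 6 arrays. Leaving rat 11 aside, 3 lesions reached that range, nodule 5 and adenoma 2 of rat 14 and beta-catenin carcinoma 4 of rat 23, and each of them was below its own rat's surrounding liver. The fitted differences of Cdh17 were -2.57 ± 0.47 in foci, -1.96 ± 0.52 in FFPE adenomas, -1.56 ± 0.83 in nodules, -3.66 ± 0.82 in adenomas, -3.0 ± 0.88 in carcinomas and -2.79 ± 0.84 in beta-catenin carcinomas. Frozen adenomas came only from rats 14 and 23, whose surrounding liver was high, and the plain difference of group means, which ignores the rat, was -1.92 in adenomas and -2.65 in nodules. In FFPE adenomas the difference of Cdh17 was -1.03 without FFPE adenoma 5 and -3.07 without rat 10, and in nodules it was -0.86 without rat 10.

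Inmt, the amine methyltransferase, was below every surrounding array of its own rat in all 33 lesions, and at least 2-fold below their mean in 28. In FFPE tissue the foci ranged from 5.45 to 6.81 with a median of 5.59 and the adenomas had 7.20, 7.92, 8.45, 6.49 and 5.79, against 7.96, 9.07, 8.13 and 7.63 in surrounding liver. No focus reached the lowest surrounding array, and 2 adenomas did. Frozen nodules had 7.83, 7.33, 9.71, 8.55 and 10.32, the adenomas ranged from 5.41 to 9.64 (median 7.48), carcinomas had 6.01, 6.75, 5.46 and 6.72, and beta-catenin carcinomas 5.22, 6.20, 9.88 and 7.53, against 9.41 to 11.48 (median 10.48) in surrounding liver. The carcinomas lay entirely below surrounding liver, whereas nodules 3 and 5, adenoma 2 and beta-catenin carcinoma 3 lay within its range but below their own rats. Inmt differed by -2.11 ± 0.37 in foci, -1.07 ± 0.41 in FFPE adenomas, -1.32 ± 0.59 in nodules, -3.91 ± 0.59 in adenomas, -3.78 ± 0.63 in carcinomas (13.8-fold lower) and -3.25 ± 0.60 in beta-catenin carcinomas. In FFPE adenomas it was -0.70 without FFPE adenoma 5 and -1.73 without rat 10.

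Aass, the lysine-degrading enzyme, was the steadiest of the 7 in surrounding liver and spread widely in beta-catenin carcinomas. Those carcinomas had log2 levels of 10.98, 5.31, 5.26 and 4.24 and the other carcinomas 9.39, 10.64, 6.36 and 7.64, against 11.18 to 11.65 (median 11.36) in surrounding liver. Beta-catenin carcinoma 1, from rat 10, was close to surrounding liver and the other 3 were the lowest of all 26 frozen arrays. The adenomas ranged from 8.43 to 10.82 with a median of 9.16, all below surrounding liver, and the nodules had 11.28, 11.06, 10.68, 10.49 and 11.45, which overlapped with it. Fitted differences of Aass were -4.69 ± 0.86 in beta-catenin carcinomas (25.9-fold lower), -2.71 ± 0.89 in carcinomas, -1.43 ± 0.83 in adenomas and -0.81 ± 0.84 in nodules. With single arrays left out the difference in beta-catenin carcinomas ran from -6.32 to -4.09. Without rat 23 it was -2.84 in beta-catenin carcinomas and -2.39 in adenomas, without rat 14 it was -0.69 in adenomas, and in nodules it was -1.30 without nodule 5 and -0.31 with the control set as a block. Foci ranged from 8.36 to 9.71 (median 9.03) and FFPE adenomas had 9.36, 9.0, 8.80, 8.40 and 8.80, against 9.78, 9.80, 9.46 and 10.15 in FFPE surrounding liver. The FFPE adenomas lay below all surrounding arrays and the highest focus lay above the lowest of them, with fitted differences of -1.01 ± 0.21 in adenomas and -0.84 ± 0.19 in foci.

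Dhrs7l1, the short-chain dehydrogenase, held the one lesion that stood clearly above its own rat. FFPE adenoma 2 of rat 10 had a log2 level of 9.81, which was 3.01 above the 6.80 of that rat's surrounding liver. The other FFPE adenomas had 6.38, 9.95, 8.40 and 4.16 and the foci ranged from 3.88 to 6.29 (median 5.22), against 6.80, 11.47, 7.54 and 8.43 in surrounding liver. The foci lay below all surrounding arrays. Frozen nodules had 5.89, 5.10, 5.64, 5.66 and 9.75, the adenomas ranged from 5.41 to 9.65 (median 6.60), carcinomas had 6.12, 5.57, 6.88 and 6.47, and beta-catenin carcinomas 4.07, 5.84, 9.98 and 10.12. Frozen surrounding liver ranged from 6.54 to 11.55 with a median of 8.04, so all 4 frozen lesion types overlapped with it when rats were pooled. Dhrs7l1 differed by -2.51 ± 0.62 in foci, -1.54 ± 0.69 in FFPE adenomas, -1.43 ± 0.75 in nodules, -3.97 ± 0.74 in adenomas, -2.44 ± 0.80 in carcinomas and -1.95 ± 0.77 in beta-catenin carcinomas. The plain difference of group means was -1.96 in adenomas, which came from rats with high surrounding levels, and -2.56 in nodules. Without carcinoma 4 the difference in carcinomas was -1.21, and in FFPE adenomas it was -2.51 without FFPE adenoma 2 and -0.56 without FFPE adenoma 5.

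Tpd52l1, the D52 family member, was below surrounding liver in every frozen adenoma and carcinoma. The adenomas ranged from 4.25 to 7.82 with a median of 5.22, carcinomas had 6.10, 7.02, 4.12 and 4.18, and beta-catenin carcinomas 7.49, 6.63, 3.88 and 3.79, against 8.02 to 9.46 (median 9.04) in surrounding liver. The nodules had 8.02, 7.86, 7.92, 7.67 and 8.59, close to the lower end of surrounding liver. Tpd52l1 differed by -3.05 ± 0.57 in adenomas, -3.54 ± 0.61 in carcinomas (11.7-fold lower), -3.10 ± 0.59 in beta-catenin carcinomas and -1.32 ± 0.58 in nodules. The foci ranged from 3.31 to 7.76 (median 5.57) and FFPE adenomas had 7.77, 7.47, 6.10, 4.20 and 3.99, against 7.61, 7.26, 6.34 and 7.66 in surrounding liver. Both FFPE lesion groups overlapped with surrounding liver, and Tpd52l1 spread most widely of the 7 among foci (SD 1.62, n = 9), with fitted differences of -1.54 ± 0.66 in foci and -1.59 ± 0.73 in adenomas. The difference of Tpd52l1 in FFPE adenomas was -0.55 without FFPE adenoma 5 and -3.10 without rat 10, that in foci -0.78 without rat 10 and -2.33 without rat 7, and that in beta-catenin carcinomas -1.85 without rat 23.

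**Figure D2:**
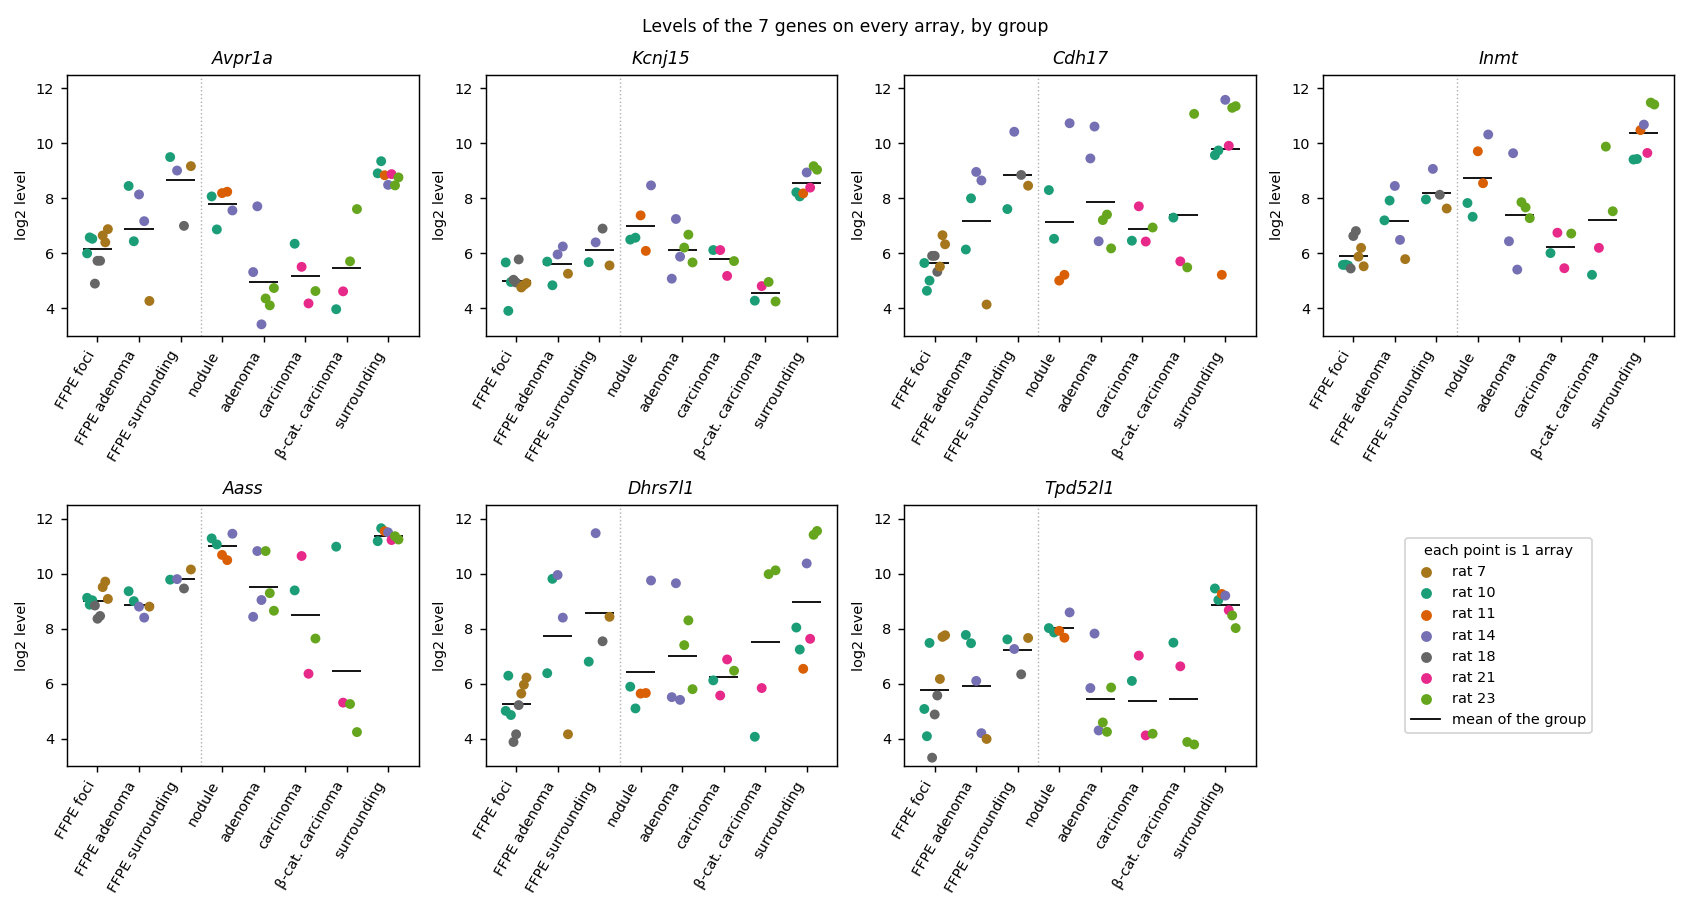
Log2 level of each gene on every array, by group, with 1 point per array coloured by rat and a line at the group mean, FFPE groups left of the dotted line. Beta-catenin carcinomas hold the lowest Kcnj15 levels in frozen tissue (4.25 to 4.96), and the surrounding liver of rat 11 stands apart for Cdh17 (5.22).

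Each lesion was also set against the surrounding liver of its own rat. Of 231 pairs of a gene and a lesion, 223 were below every surrounding array of that rat, and 171 (74.0%) were at least 2-fold below their mean, against 4.39% over all genes. All 7 genes were below in 27 of the 33 lesions. By gene, the number of lesions below was 33 for Avpr1a, 32 for Kcnj15, 31 for Cdh17, 33 for Inmt, 32 for Aass, 32 for Dhrs7l1 and 30 for Tpd52l1. Over all genes, 2.89% were below in 30 or more lesions, and 0.788% were at least 2-fold lower in 17 or more lesions. Both cutoffs are the lowest counts among the 7 genes, so all 7 reach them by construction. The genes were chosen on these same arrays, and the 33 lesions came from 7 rats. These shares therefore describe the choice and carry no test. The 8 pairs not below were Aass in nodule 1, Cdh17 in nodule 4, Kcnj15 and Tpd52l1 in FFPE adenoma 1, Cdh17 and Dhrs7l1 in FFPE adenoma 2, and Tpd52l1 in foci 8 and 9. Lesions differed in depth. All 4 carcinomas and all 4 beta-catenin carcinomas had at least 5 genes at least 2-fold lower, foci had at least 4, and frozen adenomas between 3 and 7. Nodule 5 of rat 14 had none, and nodule 3 and FFPE adenoma 2 had 1 each.

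**Figure D3:**
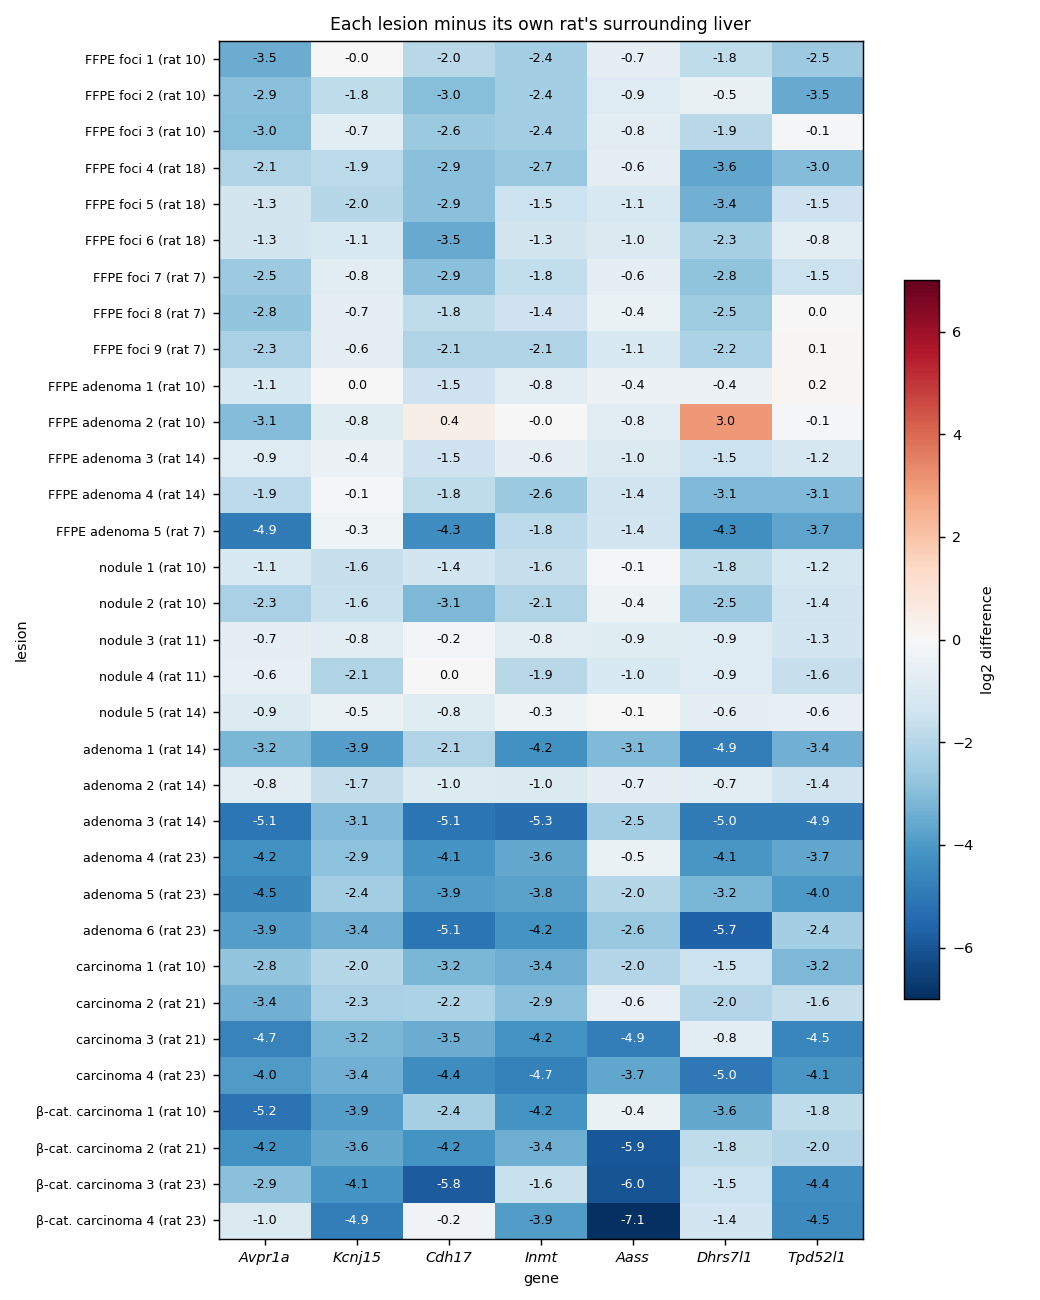
Log2 level of each gene in each of 33 lesions minus the mean of its own rat's surrounding liver, written in each cell and coloured blue where lower and red where higher. Nearly all cells are blue, Dhrs7l1 in FFPE adenoma 2 is the only one above 1, and nodule 5 is pale throughout.

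The surrounding liver of the 5 rats with frozen tissue differed in 3 of the genes by more than 2 log2 units. Dhrs7l1 had 10.37 in rat 14 and 11.41 and 11.55 in rat 23, against 8.04 and 7.24 in rat 10, 6.54 in rat 11 and 7.63 in rat 21. Cdh17 had 11.58 in rat 14 and 11.29 and 11.35 in rat 23, against 9.57 and 9.74 in rat 10, 9.91 in rat 21 and 5.22 in rat 11. Rats 14 and 23 were the highest for both genes. Inmt had 10.68 in rat 14 and 11.48 and 11.41 in rat 23, against 9.41 and 9.43 in rat 10, 10.48 in rat 11 and 9.65 in rat 21. The means of rats spanned 4.94 for Dhrs7l1, 6.36 for Cdh17 and 2.03 for Inmt, while arrays of 1 rat differed by at most 0.80, 0.17 and 0.07 for these genes. Aass means spanned 0.32, less than the 0.47 between arrays of 1 rat. Rat 14 was also above rat 10 in FFPE surrounding liver for Dhrs7l1 (11.47 against 6.80), Cdh17 (10.42 against 7.61) and Inmt (9.07 against 7.96).

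**Figure D4:**
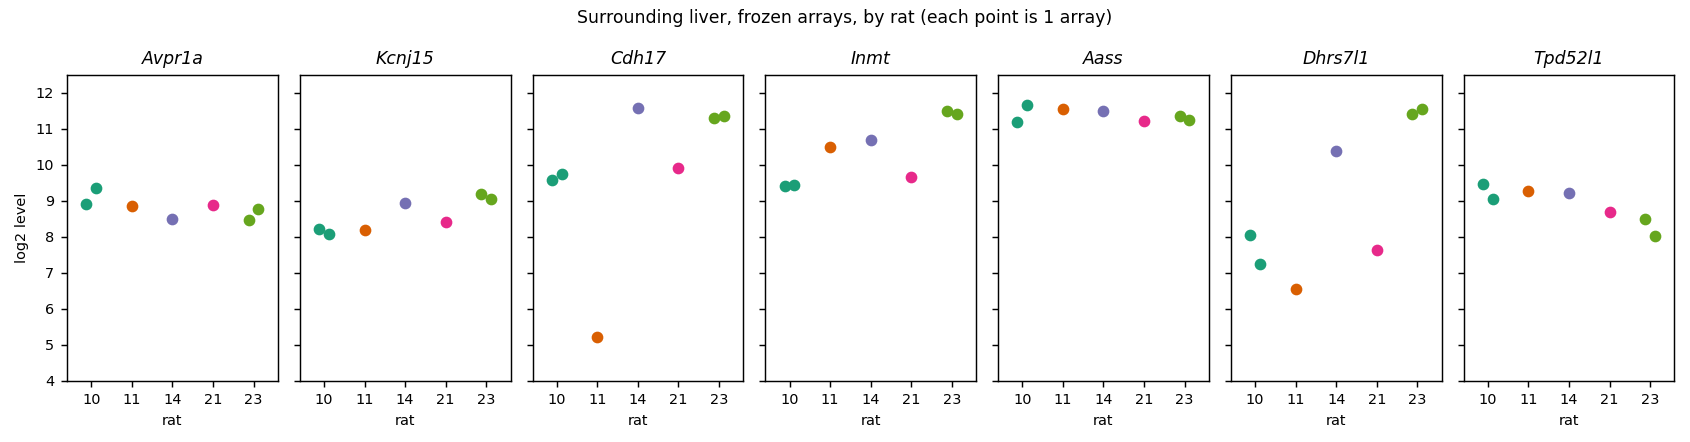
Log2 level of each gene in frozen surrounding liver by rat, 1 point per array. Dhrs7l1 and Cdh17 spread over several log2 units between rats and little within a rat, and Aass lies between 11.18 and 11.65 throughout.

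The frozen lesions carry named control sets. The surrounding arrays of the carcinomas' sets (n = 3, rats 10, 21 and 23) were compared with those of the other sets (n = 4, rats 10, 11, 14 and 23), a comparison fitted without the rat that the choice of genes did not use. By limma 6.15% of all genes were called, and none of the 7 was. None of the 7 had an unadjusted p under 0.05 either, against 3480 of all 14217 genes. Differences ranged from -0.52 (Tpd52l1, 95% interval -1.14 to 0.10) to 0.92 (Cdh17, -2.10 to 3.93). The direction for Cdh17 rested on the array of rat 11, without which the difference was -0.48, and that of Dhrs7l1 (-0.28) ran from -1.65 to 0.50 as single arrays were left out. When the control set was the block instead of the rat, all 7 genes still averaged lower in every frozen lesion type. That sign describes how the genes were chosen and carries no test.

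Lesion types were also compared with each other, on the same arrays that the choice of the genes rested on. All 8 carcinomas were set against nodules, where 5.65% of all genes were called. Only rat 10 gave both, so this fit joins rats largely through their surrounding liver. Of the 7 genes Kcnj15 passed, at 2.05 log2 units lower in carcinomas (difference -2.05 ± 0.41, limma adjusted p = 0.0138). Carcinomas of both kinds had 4.25 to 6.12, and nodules 6.09 to 8.47, so all but the lowest nodule lay above them. The call was lost without nodule 1 (adjusted p = 0.0518), without nodule 5 (0.0601) and with the control set as a block (0.513). Inmt (-2.20 ± 0.66, adjusted p = 0.0555), Aass (-2.89 ± 0.94, 0.0741), Tpd52l1 (-2.0 ± 0.65, 0.0728) and Avpr1a (-2.0 ± 0.74, 0.114) missed the threshold in the same comparison. Without beta-catenin carcinoma 1, whose source name gives no mutation, Aass (-4.19 ± 0.73, 0.00441) and Tpd52l1 (-2.42 ± 0.68, 0.0399) passed. Without carcinoma 2, Inmt, Aass and Tpd52l1 passed (0.0326 to 0.0471). With no block for the rat, 5 of the 7 genes passed. The share of all genes called was not counted for that fit or for fits with arrays left out.

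Beta-catenin carcinomas and adenomas shared only rat 23, so their fit also joins rats largely through surrounding liver. Between these groups 13.7% of all genes were called, and of the 7 genes Aass was, with a difference of -3.26 ± 0.96 (adjusted p = 0.0295). It had 10.98, 5.31, 5.26 and 4.24 in beta-catenin carcinomas, against 8.43 to 10.82 in adenomas. That call was lost when beta-catenin carcinoma 2, 3 or 4 or adenoma 4 or 5 was left out (highest adjusted p 0.137), without all arrays of rat 23 (-0.45 ± 1.63, 0.954), with the control set as a block (0.648) and with arrays of a rat and group averaged (0.252). Kcnj15 was at -1.17 ± 0.41 (adjusted p = 0.0625) and Dhrs7l1 at 2.03 ± 0.86 (0.117), or 0.49 with no block for the rat. Without adenoma 2 the difference of Dhrs7l1 was 2.40 ± 0.70 (0.0284), higher in beta-catenin carcinomas.

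Of the remaining pairs of lesion types, none of the 7 genes was called. For carcinomas against adenomas 2.95% of all genes were called, and the differences of the 7 ran from -1.28 ± 1.04 (Aass) to 1.53 ± 0.93 (Dhrs7l1). Both turned round elsewhere, Aass to 0.52 without rat 23 and Dhrs7l1 to -0.75 with no block for the rat. For beta-catenin carcinomas against carcinomas 0% of all genes were called, with 723 at an unadjusted p under 0.05, and the differences with their 95% intervals were -1.31 (-2.17 to -0.45) for Kcnj15 and -1.99 (-3.98 to 0.01) for Aass. That of Aass was -3.41 without beta-catenin carcinoma 1 and -1.23 without carcinoma 2, and that of Kcnj15 was -0.68 with the mean of its probe sets. For FFPE adenomas against foci, likewise at 0% of all genes and 633 unadjusted, the one unadjusted difference was Inmt at 1.03 (0.25 to 1.82), which was 0.67 without FFPE adenoma 2 and 0.02 without rat 10. For adenomas against nodules, also at 0% and with 2265 unadjusted, 6 of the 7 were lower at an unadjusted p under 0.05, from -2.77 ± 0.78 for Avpr1a to -1.53 ± 0.43 for Kcnj15. This last fit joins rats through their surrounding liver, as do those of carcinomas against nodules and of either kind of carcinoma against adenomas. The plain means of adenomas and nodules lay the other way for Dhrs7l1 (7.01 and 6.41) and Cdh17 (7.88 and 7.16). Without adenoma 2, Avpr1a, Kcnj15, Inmt and Dhrs7l1 passed the threshold in adenomas against nodules, at adjusted p between 0.00948 and 0.035. How many of all genes passed in that fit was not counted.

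Adenomas were taken in both fixations, and the difference of their effects (FFPE minus frozen) was fitted jointly. Kcnj15 passed, at 2.40 ± 0.50 (adjusted p = 0.0163, 0.331% of all genes called), so it was less far below surrounding liver in FFPE than in frozen adenomas. The FFPE surrounding arrays had 5.56 to 6.90 for Kcnj15, and the frozen ones 8.07 to 9.17. Array medians were 5.58 to 5.68 in FFPE and 5.49 to 5.59 in frozen tissue, so the FFPE reference left less room for a fall. The part of this in the difference was not tested. Inmt had 2.83 ± 0.77 (adjusted p = 0.109) and Dhrs7l1 2.43 ± 1.12 (0.384), and all 7 differences were above 0, the smallest for Aass (0.42 ± 0.95, and -0.22 without rat 14). The call for Kcnj15 was lost without FFPE surrounding replicate 2 (0.0522), with the mean of its probe sets (0.0746) and with no block for the rat (0.0907), and without rat 7, 10, 14 or 23 (0.053 to 0.184). Microdissection, fixation, kit, rats and, for Kcnj15, the level of the reference differ between the sets and cannot be told apart.

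Across the 26 frozen arrays the 21 pairs of the 7 genes had a median Pearson r of 0.521, from -0.00488 for Aass with Dhrs7l1 to 0.824 for Kcnj15 with Inmt. In the 18 FFPE arrays the median was 0.639 and the highest r was 0.881, for Cdh17 with Dhrs7l1. Arrays share rats and groups, so these values describe and are not tested. With each group's mean removed the median r was 0.242 in frozen tissue, where the highest was 0.789 for Inmt with Dhrs7l1, and 0.330 in FFPE tissue, where it was 0.804 for Cdh17 with Dhrs7l1. Kcnj15 with Inmt was at 0.699 in frozen and 0.213 in FFPE tissue on that basis, and Aass with Tpd52l1 at 0.667 in frozen and 0.617 in FFPE tissue.

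The genes whose frozen pattern was most like the mean of the 7 standardised levels were Olr59 (r = 0.945, and 0.602 in FFPE tissue), Gpld1 (0.941 and 0.681), Coch (0.934 and -0.0952), Akr1c1 (0.926 and 0.834) and AKR1C3l1 (0.926 and 0.849). The closest single genes were Slc27a5 for Avpr1a (0.948, and 0.753 in FFPE tissue), Abhd1 for Kcnj15 (0.919 and 0.207), Edil3 for Cdh17 (0.808 and 0.486) and Sult1c3 for Inmt (0.905 and 0.775). For Aass it was C8g (0.935 and 0.524), for Dhrs7l1 Ust5r (0.903 and 0.736) and for Tpd52l1 Slc16a10 (0.884 and 0.703). The likeness of Coch and Abhd1 was high in frozen tissue and low in FFPE tissue.

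Genes of the same pathways and families, which are not among the 7, were tested against surrounding liver. The lists were chosen with earlier results known, so their counts are given beside the share of all genes called and carry no test. A list of 14 enzymes around methyl transfer, the reaction type of Inmt, also holds Mat1a and Ahcy, which transfer no methyl group themselves. Of these 14, 10 (71.4%) fell in adenomas, where 9.57% of all genes were called lower, and 7 fell in beta-catenin carcinomas (9.58% of all genes). In carcinomas 5 (35.7%) fell, against 6.91% of all genes, in foci 4 (28.6%), against 1.36%, and in FFPE adenomas 3 (21.4%), against 0.872%. None passed in nodules, and 1 (Mettl7a) rose, in beta-catenin carcinomas. The shares of all genes called higher were 1.81% in foci, 1.29% in FFPE adenomas, 0.19% in nodules, 15.4% in adenomas, 4.48% in carcinomas and 7.74% in beta-catenin carcinomas. Gnmt, which methylates glycine and consumes S-adenosylmethionine, fell by 1.34 in foci, 1.14 in FFPE adenomas, 1.94 in adenomas, 2.59 in carcinomas and 3.17 in beta-catenin carcinomas (adjusted p = 0.000442, 0.0103, 0.00287, 0.00134 and 8.2e-05). Nnmt, which methylates nicotinamide, fell by 1.97 in adenomas, 1.75 in carcinomas and 2.75 in beta-catenin carcinomas (adjusted p = 0.00012, 0.00144 and 1.49e-05). Its call in foci (-1.0) was lost without any of 10 of the 13 arrays, while the difference stayed between -1.11 and -0.89. Mat1a, which makes S-adenosylmethionine in the liver, and Ahcy, which removes its product, were called lower in the same 5 lesion types as Gnmt, by at most 1.35 and 0.75. The call of Mat1a in adenomas was lost with the control set as a block (adjusted p = 0.0503), the call of Gnmt in FFPE adenomas was lost without surrounding replicate 1 or 2, that of Mat1a in foci without any of 3 of 13 arrays and in carcinomas without carcinoma 1. Ahcy lost its call in carcinomas without carcinoma 1, in beta-catenin carcinomas without replicate 2, 3 or 4, and in foci and FFPE adenomas without any of 11 of 13 and 6 of 9 arrays. As3mt, an arsenic methyltransferase, fell in adenomas (-0.70), carcinomas (-0.89) and beta-catenin carcinomas (-0.74).

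Of 17 enzymes of lysine breakdown after Aass and of the tryptophan pathway, 12 (70.6%) fell in beta-catenin carcinomas, against 9.58% of all genes. Most members did not pass in carcinomas, where 7 (41.2%) fell (6.91% of all genes), or in adenomas, where 8 (47.1%) fell (9.57%). In foci 1 fell and 1 (Acat1) rose, and none passed in nodules or FFPE adenomas. Aldh7a1, which follows Aass in lysine breakdown, fell by 0.40 in adenomas, 0.49 in carcinomas and 0.63 in beta-catenin carcinomas. Dhtkd1, part of the dehydrogenase complex for 2-oxoadipate, fell by 0.90, 0.99 and 1.39 in the same order. Aadat, the aminoadipate aminotransferase, fell in these 3 and in foci by between 0.53 and 0.75, and the calls in foci and carcinomas were lost when single arrays were left out (3 of 13 and 8 of 11). With the control set as a block the call of Aadat was also lost in beta-catenin carcinomas (adjusted p = 0.101). Hadh and Kynu fell in the 3 frozen tumour types by at most 0.84. The call of Hadh in adenomas was lost under 4 of 11 other settings, among them no block for the rat (adjusted p = 0.112), and its call in carcinomas with the mean of its probe sets (0.285). With the control set as a block Kynu lost its calls in both kinds of carcinoma. Without carcinoma 1 the call of Hadh in carcinomas was lost, and without carcinoma 4 that of Kynu, which lost its call in beta-catenin carcinomas without beta-catenin carcinoma 1. Tdo2, the first enzyme of tryptophan breakdown, fell by 3.41 ± 0.71 in beta-catenin carcinomas (adjusted p = 0.00217), and in carcinomas its -2.16 ± 0.74 missed the threshold.

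Of 29 short-chain dehydrogenases, 8 (27.6%) fell in adenomas and 8 in beta-catenin carcinomas, against 9.57% and 9.58% of all genes, and 7 (24.1%) fell in carcinomas, against 6.91%. The numbers that rose were 3 (10.3%) in adenomas, 2 (6.9%) in carcinomas and 1 (3.45%) in beta-catenin carcinomas, against 15.4%, 4.48% and 7.74% of all genes. In foci and in FFPE adenomas 3 fell and 1 rose, against 1.36% lower and 1.81% higher of all genes in foci and 0.872% and 1.29% in FFPE adenomas, and none passed in nodules. Dhrs7, which lies next to Dhrs7l1 on chromosome 6 in RefSeq with no gene between them, rose by 1.04 ± 0.26 in adenomas (adjusted p = 0.00579), 1.0 ± 0.26 in foci (0.0298), 1.17 ± 0.29 in FFPE adenomas (0.0285) and 0.90 ± 0.28 in carcinomas (0.0406). Dhrs7l1 was lower in all of these. The call of Dhrs7 in adenomas held under every alternative and left-out array, and those in foci, FFPE adenomas and carcinomas were each lost under other settings and without any of 6 of 13, 5 of 9 and 9 of 11 arrays. Hsd17b2, which oxidises estradiol and testosterone, fell by 0.94 in foci, 0.93 in FFPE adenomas, 1.47 in adenomas, 1.19 in carcinomas and 0.94 in beta-catenin carcinomas, and its calls in foci and FFPE adenomas were lost without any of 2 of 13 and 6 of 9 arrays. Hsd17b6, an oxidoreductase of androgens and retinoids, fell by 3.95 ± 0.83 in beta-catenin carcinomas, 3.08 ± 0.86 in carcinomas and 1.14 ± 0.21 in foci. Its call in carcinomas was lost without carcinoma 1 or 4 or surrounding replicate 5, and with the control set as a block. Rdh10, a retinol dehydrogenase, and Dcxr, the xylulose reductase, fell in adenomas, carcinomas and beta-catenin carcinomas by 0.88 to 1.30. Without carcinoma 1, both calls in carcinomas were lost, and for Dcxr also without carcinoma 4 or surrounding replicate 5. With the mean of its probe sets Rdh10 was at -0.68 in adenomas, -0.49 in beta-catenin carcinomas and -0.42 in carcinomas, where the call was lost. Rdh7 fell by 1.66 in adenomas and Hsd17b10 by 0.70 in beta-catenin carcinomas.

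Of 20 genes of vasopressin and calcium signalling, 5 fell and 1 rose in adenomas, where 9.57% of all genes were called lower and 15.4% higher. In each kind of carcinoma 3 fell and 1 rose, against 6.91% lower and 4.48% higher of all genes in carcinomas and 9.58% and 7.74% in beta-catenin carcinomas, and none passed in nodules, foci or FFPE adenomas. Agtr1a, the angiotensin receptor, fell by 1.34 in adenomas, 1.19 in carcinomas and 1.86 in beta-catenin carcinomas, and Adra1b, an adrenergic receptor of hepatocytes, by 1.08, 0.89 and 0.50. Both couple to calcium release like Avpr1a. Agtr1a's call in carcinomas was lost without carcinoma 1 or surrounding replicate 5, and with the mean of its probe sets. Plcb4 rose by 1.53 ± 0.50 in beta-catenin carcinomas, a call lost without any of 8 of 11 arrays. Of 14 other potassium channel genes, 1 fell in adenomas, 1 in carcinomas and 1 in beta-catenin carcinomas (Kcnk5 each time, -0.58, -0.82 and -0.73), 1 rose in FFPE adenomas (Kcnq1, 1.45 ± 0.38), 1 rose in beta-catenin carcinomas (Kcne3, 1.26 ± 0.35), and none passed in foci or nodules. A single gene is 7.14% of that list, near the shares of all genes in the 3 frozen tumour types. Each of these 5 calls was lost without at least 1 array, that of Kcnk5 in carcinomas without carcinoma 4.

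Of 22 other cadherin and junction genes, at most 2 fell and 1 rose in any lesion type, with 1 fall and 1 rise in foci and in FFPE adenomas, 2 falls and 1 rise in adenomas, 1 rise in each kind of carcinoma and none in nodules. The 2 falls in adenomas are 9.09% of the list, against 9.57% of all genes, and 1 gene is 4.55% of it, against 15.4%, 4.48% and 7.74% of all genes called higher in adenomas, carcinomas and beta-catenin carcinomas. Gjb1, the main gap junction protein of hepatocytes, fell by 1.95 ± 0.28 in adenomas (adjusted p = 6.94e-05) and by 0.74 and 0.78 in foci and FFPE adenomas. In carcinomas it missed the threshold at -0.53 ± 0.30 and passed with the control set as a block (-1.09, adjusted p = 0.0051). Its calls in foci and FFPE adenomas were lost without any of 2 of 13 and 4 of 9 arrays. Gjb2, another gap junction protein, rose by 1.62 ± 0.24 in foci and 1.79 ± 0.27 in FFPE adenomas (adjusted p = 9.22e-05 and 0.000133). It stood at -1.10 ± 0.51 in beta-catenin carcinomas, and over the left-out arrays it ran from -1.95 without beta-catenin carcinoma 1, the one case in which it was called, to -0.45 without beta-catenin carcinoma 4. The list for Tpd52l1 had 3 measured genes, its relatives Tpd52 and Tpd52l2, and Mal2. In adenomas Tpd52 rose by 0.75 ± 0.14 and Tpd52l2 by 0.27 ± 0.10, 2 of 3, where 15.4% of all genes rose. None of the list passed in the other 5 lesion types. The call of Tpd52 was lost with the mean of its probe sets (0.35, adjusted p = 0.143), and that of Tpd52l2 was lost without any of 10 of 13 arrays. None of the 3 was called lower in any lesion type.

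**Figure D5:**
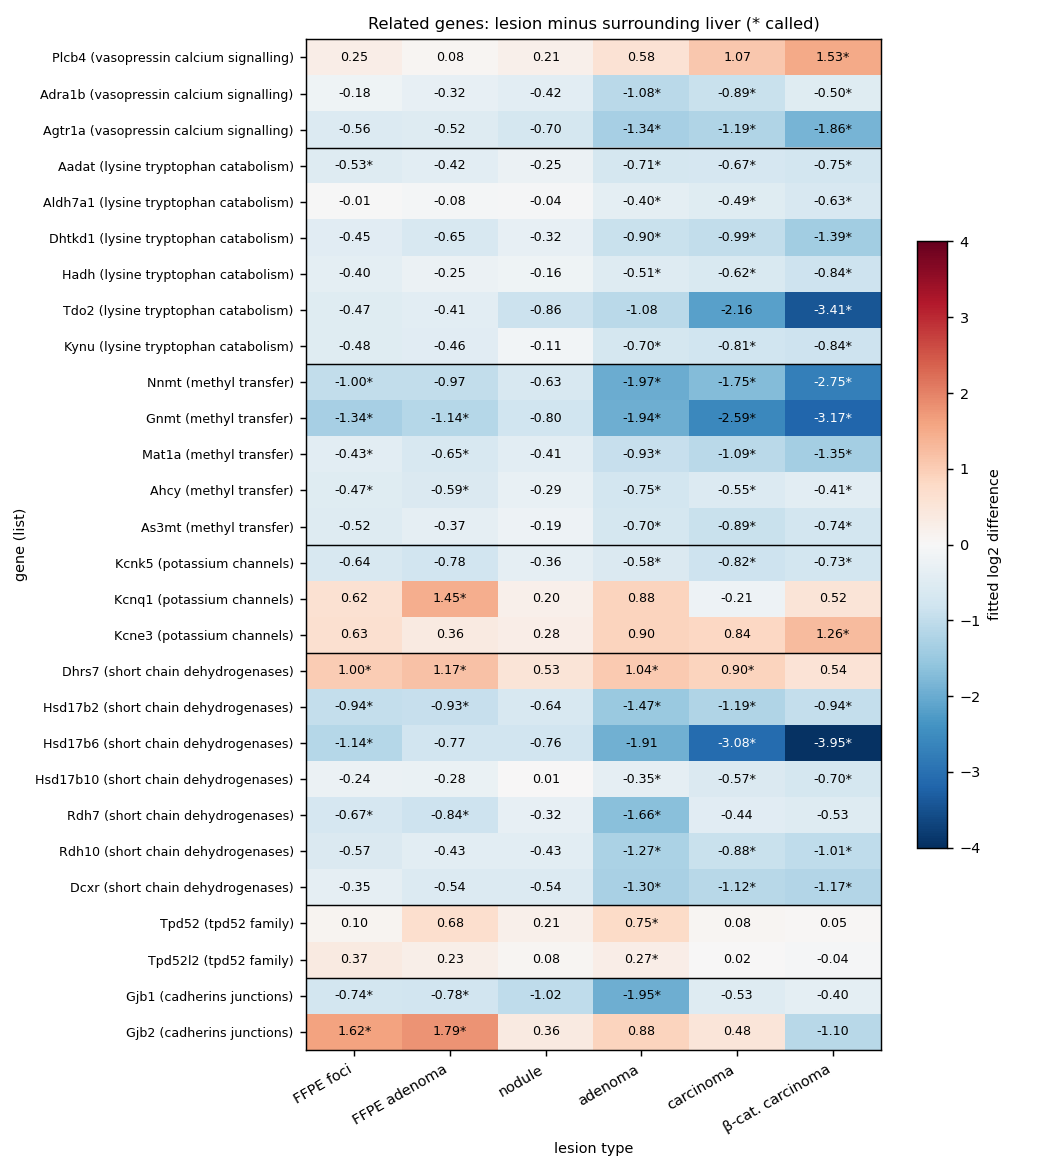
Fitted log2 difference from surrounding liver for 28 related genes in 6 lesion types, blue where lower and red where higher, with an asterisk at an adjusted p under 0.05. The methyl transfer and lysine or tryptophan genes shown are blue across adenomas and both kinds of carcinoma, Dhrs7 is red, and the nodule column has no asterisk.

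Albumin, the defining hepatocyte product, was high on all arrays, at 14.95 to 15.13 in frozen tissue and at 14.15 to 14.58 in FFPE tissue. The highest of all values on these arrays is 15.13. Albumin thus lies at the top of the measured scale, where a change in hepatocyte content may not show. Of 10 hepatocyte markers 1 rose and 1 fell in foci and in FFPE adenomas, 1 rose and 4 fell in adenomas, 2 fell in carcinomas, 3 fell in beta-catenin carcinomas, and none passed in nodules. Of all genes 9.57% were called lower in adenomas, 6.91% in carcinomas and 9.58% in beta-catenin carcinomas, and 15.4%, 4.48% and 7.74% higher. In foci 1.36% were called lower and 1.81% higher, and in FFPE adenomas 0.872% and 1.29%. These shares apply to all marker counts here. The log2 of their summed level was 16.71 to 16.84 in foci and 16.74 to 16.92 in FFPE adenomas, against 16.78 to 16.97 in FFPE surrounding liver. In frozen tissue it was 17.17 to 17.35 in nodules, 17.20 to 17.28 in adenomas, 17.11 to 17.24 in carcinomas and 16.95 to 17.18 in beta-catenin carcinomas, against 17.29 to 17.33 in surrounding liver. Of 7 bile duct markers 2 rose in adenomas and 2 in FFPE adenomas, and their summed level was 10.15 to 11.97 in nodules, 10.76 to 12.75 in adenomas, 10.03 to 10.91 in carcinomas and 9.78 to 11.84 in beta-catenin carcinomas, against 9.62 to 10.32 in surrounding liver. Krt19, the defining one, had a median of 10.32 in adenomas, against 5.60 in surrounding liver, and 6.29 in FFPE adenomas, against 3.75 in FFPE surrounding liver.

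Of 8 macrophage markers 3 fell in foci, adenomas and carcinomas each and 5 in beta-catenin carcinomas. Their summed level was 11.07 to 11.90 in beta-catenin carcinomas, 11.37 to 12.23 in carcinomas and 11.21 to 12.41 in adenomas, against 12.09 to 12.83 in surrounding liver. Of 12 stellate cell and fibroblast markers 3 rose in foci and in FFPE adenomas, 1 rose in adenomas, 1 rose and 1 fell in carcinomas, and 2 rose and 1 fell in beta-catenin carcinomas. Their summed level was 10.52 to 12.33 in foci and 11.56 to 11.99 in FFPE adenomas, against 10.52 to 10.87 in FFPE surrounding liver. In beta-catenin carcinomas 1 of 7 endothelial and 1 of 5 blood cell markers fell, and in adenomas 2 of 8 lymphocyte and 2 of 5 blood cell markers fell, against 9.58% and 9.57% of all genes called lower. The falls in adenomas are 25% of the lymphocyte and 40% of the blood cell markers. Those in beta-catenin carcinomas are 14.3% of the endothelial and 20% of the blood cell markers. Each is a count of 1 or 2 genes in a short list, and none was tested against those shares. The part of these markers in the levels of the 7 genes was not tested.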

How the data were processed

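Single-colour Affymetrix arrays measured gene expression in 47 samples of rat liver. The authors deposited log2 probe set summaries (31042 probe sets), per the labels and the values of the table, and their background correction, summarization and normalization are not given in the sources used here. Per the labels' protocols, frozen RNA was extracted with TRIzol and miRNeasy and 250 ng was labelled with a 3' IVT kit, and FFPE RNA came from microdissected tissue by an RNeasy FFPE kit. Arrays give no counts, so their number limits the precision.

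Of the probe sets, 20826 had 1 gene symbol, 436 several and 9780 none. Each of 14217 genes was represented by its brightest probe set in a fixation. Frozen and FFPE arrays had a model each, fitted by limma 3.58.1 (R 4.3.3) with group and rat as fixed terms and an intensity trend, leaving 17 residual degrees of freedom for frozen arrays and 12 for FFPE arrays, and p-values were adjusted by Benjamini-Hochberg over all genes. The scripts were tested on simulated data. The rat pairs samples, as it gave both its lesions and the liver around them. The median r of deviations from group means was 0.127 within rats (50 pairs) and -0.025 between rats in frozen tissue, and 0.11 (23 pairs) and -0.0395 in FFPE tissue.

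The 7 genes and all lists were chosen with earlier results of these data known. Related genes were named when called in 3 or more of 6 lesion types in 1 direction or when among the 2 largest differences of their list, and most alike genes by Pearson r over frozen arrays (5 for the mean, 1 for each gene). The rat was taken from the sample title, since a label field gives 4 numbers for the samples of rat 21. Beta-catenin carcinoma replicate 1 and FFPE adenoma replicate 4 have a source name that differs from their group label, since the first names no mutation and the other reads as surrounding tissue. Both stayed under their group label in the main result and were dropped in an alternative. Alternatives were no block, the control set or a random rat as block, averaged arrays, quantile normalization, centring, no dim genes, mean probe sets, adjustment over probe sets, no trend and each array left out. Leaving out each rat in turn was added after seeing the data. The 3 arrays named C43 normal entered no comparison.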

Additional observations from a re-analysis of the deposited data

Results flagged for a closer look

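Of 56 groups of 4 to 10 arrays tested gene by gene for a value far from the rest, 3 held one, and chance gives about 1 in 20. Cdh17 in surrounding replicate 3, the only frozen surrounding array of rat 11, was 5.22, where the nearest of the other 6 was 9.57. Both nodules of rat 11 were at a similar level (5.01 and 5.22). Aass in beta-catenin carcinoma 1 of rat 10 was 10.98, where the nearest of the other 3 was 5.31. The source name of that carcinoma gives no mutation. Dhrs7l1 in nodule 5 of rat 14 was 9.75, where the nearest of the other 4 was 5.89, and the surrounding liver of rat 14 was 10.37.

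The adenoma effect on Kcnj15 differed between fixations by 2.40 ± 0.50 (FFPE minus frozen, limma adjusted p = 0.0163), and the range of that adjusted p over other settings was 0.0167 to 0.184. Surrounding liver had 5.56 to 6.90 for Kcnj15 in FFPE tissue and 8.07 to 9.17 in frozen tissue, so the FFPE reference left less room for a fall. The part of this was not tested, and microdissection, fixation, kit and rats differ between the sets as well.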

How the results depend on the processing

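The median difference of the 7 genes from surrounding liver stayed below 0 under every alternative run. The genes were chosen as falls on these same arrays, so this sign describes the choice and carries no test. With no replicate block for the rat it was -2.44 in adenomas, and without rat 10 it was -1.53 in foci and -2.88 in FFPE adenomas. With single arrays left out it was -2.22 to -1.84 in foci, -1.97 to -0.70 in FFPE adenomas, -1.58 to -1.14 in nodules, -4.02 to -3.26 in adenomas, -3.40 to -2.56 in carcinomas and -3.85 to -3.10 in beta-catenin carcinomas. With no replicate block, 2 of the 7 genes were called for adenomas against nodules, 2 for beta-catenin carcinomas against adenomas, 5 for all carcinomas against nodules and 0 for the FFPE minus frozen adenoma effect, where the fit with the block called 0, 1, 1 and 1, and a random rat block gave 1, 2, 5 and 0. For beta-catenin carcinomas against adenomas and for all carcinomas against nodules, the control set as block gave 0 and 0, averaged arrays 0 and 2 and no dim genes 2 and 2. All carcinomas against nodules gave 3 without the 2 arrays of conflicting labels, 0 without rat 10, 14 or 23 and 2 without rat 21. Beta-catenin carcinomas against adenomas gave 2 without rat 14 and 0 without rat 23. The fixation difference gave 0 with mean probe sets and 0 without rat 7, 10, 14 or 23. With single arrays left out these counts ran from 0 to 4 (adenomas against nodules, highest without adenoma 2), 0 to 2 (beta-catenin carcinomas against adenomas), 0 to 4 (all carcinomas against nodules, highest without carcinoma 2) and 0 to 2 (fixation difference), and were 0 for the other lesion pairs and the control sets. The share of all genes called was not counted under the alternatives, so no count under an alternative can be set against it. Related genes called numbered 12 in foci, 10 in FFPE adenomas, 0 in nodules, 41 in adenomas, 27 in carcinomas and 36 in beta-catenin carcinomas. They numbered 2 in FFPE adenomas and 1 in nodules with no block, 5 and 1 with a random block, 17 in carcinomas and 23 in beta-catenin carcinomas with the control set as block, 3 in foci and 2 in FFPE adenomas with no trend, and 5 in FFPE adenomas without the arrays of conflicting labels. With single arrays left out they ran from 4 to 12, 3 to 13, 0 to 0, 34 to 42, 12 to 31 and 25 to 41 in the same order of lesion types, lowest in carcinomas without carcinoma 1. Of 82 calls of the 28 named related genes, 43 held under every alternative and left-out array. The causes of these changes were not tested. The few rats, 2 for frozen adenomas, limit what these arrays can separate, and FFPE levels can lie near background for the dimmer genes, which were not measured apart.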

Other observations

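The 3 arrays named C43 normal, whose labels also call them surrounding tissue under phenobarbital, entered no comparison. Their 2 frozen arrays had log2 levels of 8.50 and 8.57 for Avpr1a, 7.95 and 7.98 for Kcnj15, 11.38 and 11.23 for Cdh17, 11.75 and 11.78 for Inmt, 11.35 and 11.50 for Aass, 12.35 and 12.22 for Dhrs7l1 and 8.03 and 8.15 for Tpd52l1. For Inmt and Dhrs7l1 these lay above all 7 arrays of surrounding liver, and for Kcnj15 below all 7. The FFPE array had 9.36, 6.26, 10.21, 10.73, 10.00, 12.57 and 6.49 for the same genes.

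Titles give the same tumour number to frozen adenoma 2 and FFPE adenoma 3 of rat 14, and another to frozen adenoma 3 and FFPE adenoma 4, without saying that they are the same tumours. The source name of FFPE adenoma 4 reads as surrounding tissue, so its values stand under a label in doubt. Relative to surrounding liver of the same fixation, Avpr1a differed by -0.88 in FFPE adenoma 3 and by -0.79 in frozen adenoma 2, and by -1.85 in FFPE adenoma 4 and -5.07 in frozen adenoma 3. Inmt differed by -2.59 in FFPE adenoma 4 and by -5.27 in frozen adenoma 3.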
